A study of Rattus norvegicus with 5 samples.

Results

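The mitochondrial respiratory chain and the ATP synthase were described here as 89 nuclear genes, taken by symbol from the array's annotation: symbols that start with Nduf, with Sdh followed by a letter from a to d, with Uqcr, with Cox4 to Cox8 or with Atp5. They make up 89 of the 14871 genes that a single-gene probe names on the array, and they carry 146 probes. There were 33 genes of complex I, 4 of complex II, 8 of complex III, 16 of complex IV, 18 of complex V and 10 assembly factors. Ndufa4, first assigned to complex I, was counted with complex IV. Sdhaf1, Sdhaf2 and Sdhaf3 came in by their first letters and were counted with the assembly factors. The label held in that every symbol names a subunit, an assembly factor or a regulator of these complexes, except Ndufs6-ps1, which is annotated as a pseudogene and was kept under complex I.

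The cells were intravascular mononuclear leukocytes, flushed out of the blood vessels of transplanted rat kidneys and freed of most granulocytes and red cells on a density gradient. The allograft group received F344 kidneys in LEW recipients, a strain pair that differs slightly at MHC class I. The isograft group received LEW kidneys in LEW recipients. All rats were male, the recipients' own kidneys had been removed, no immunosuppressive drug was given, and neither the rats' age nor the day of sampling was given in the sources used here. Each of 5 dual-colour arrays compared an allograft sample with an isograft sample, with the allograft in Cy5 on replicates 1, 3 and 5 and in Cy3 on replicates 2 and 4. Per the titles these are biological replicates, but single animals are not identified and pooling is not described.

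Complexes I to IV pass electrons from NADH and succinate to oxygen and, except for complex II, pump protons across the inner mitochondrial membrane. Complex V, the ATP synthase, lets the protons flow back and makes ATP. Lymphocytes and macrophages are known to alter the balance between this pathway and glycolysis when they are activated. The core subunits encoded by mitochondrial DNA are not among the 89 genes.

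All values below are log2 ratios of the deposited table, likely allograft over isograft, so a positive value means more transcript in allograft leukocytes. A log2 ratio compares the same probe between both samples, so it gives no level, and levels of different genes cannot be ordered. Values were present for 41033 to 43286 of the 44290 spots per array, and the array medians lay between -0.012 and 0.028. Over all spots, arrays with the allograft in the same dye correlated at 0.386 to 0.671, and arrays with opposite dyes at -0.394 to -0.125. Single genes kept their sign in both dye orientations: Pf4, a platelet chemokine, lay between -3.64 and -2.42 on the 5 arrays and Cd3e, a chain of the T cell receptor complex, between 0.88 and 1.44. Pairs of arrays correlated at -0.015 to 0.645 over all named genes and at 0.065 to 0.672 over the members (across genes, which are not independent). The gene names rest on a recovered order of the value table, since the deposited row numbers do not follow the probe numbers. In leukocyte RNA of this kind, fewer cells of a type and less RNA per cell cannot be told apart.

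The respiratory genes lay mostly above 0 in allograft over isograft leukocytes, by small amounts, and no single gene passed the test. Of the 89 genes, 75 had a fitted ratio above 0 (84.27%), against 49.13% of the 14329 named genes tested. Their median was 0.26, a fold of 1.2, beside -0.0058 for all named genes. On replicates 1 to 5 the median over the members was 0.24, 0.21, 0.30, 0.32 and 0.31. The corresponding medians of all named genes were 0.021, -0.0048, 0.014, -0.019 and 0.012, so the members lay higher on each array and in both dye orientations.

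In limma's test, adjusted by the Benjamini-Hochberg method over all 33646 genes and unnamed probes, 0 of 89 members passed 0.05 in either direction, where 1.07% of the named genes passed as higher and 0.712% as lower. The lowest adjusted p among the members was 0.0564, for Ndufa12. At an unadjusted p below 0.05, 30 members were higher (33.7%) and 3 were lower (3.37%), beside 7.63% and 7.54% of the named genes. The ratio was above 0 on all 5 arrays for 43 members (48.3%, against 10.2% of named genes). It was below 0 on every array for 5 members (5.62%, against 10.5%). Ranked by fitted ratio, 32 members (36%) stood among the highest 1432 of the 14329 named genes and 2 (2.25%) among the lowest 1432. The size of the differences was modest: 44 members had a fold of 1.2 or more, 9 had 1.5 or more, and the largest was 1.77. Without the dye term in the model, Atp5mc3, Ndufa12 and Ndufs5 passed the threshold as higher.

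**Figure D1:**
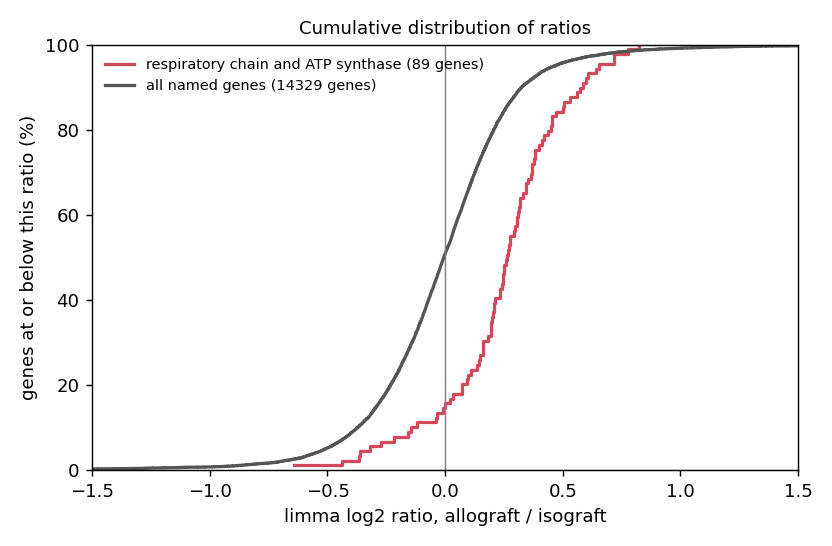
Cumulative share of genes (vertical axis, percent) at or below each fitted log2 ratio of allograft over isograft leukocytes (horizontal axis), for the 89 respiratory chain and ATP synthase genes and for all 14329 named genes tested. The curve of the members lies to the right, with a median of 0.26 against -0.0058.

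Complex I (NADH dehydrogenase) takes electrons from NADH and hands them to ubiquinone. Of its 33 genes, 28 lay above 0, 18 of them on all 5 arrays, with a median of 0.27. At an unadjusted p below 0.05, 12 were higher (36.4%, beside 7.63% of named genes) and 0 lower (beside 7.54%). The highest members were accessory subunits, which surround the catalytic core.

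Ndufa12, an accessory subunit, had ratios of 0.47, 0.79, 1.00, 0.84 and 0.74 on replicates 1 to 5, all on the allograft side. Its estimate was 0.78 ± 0.14 (SE, n = 5; limma, adjusted p = 0.0564), the lowest adjusted p of the family. Ndufs5, another accessory subunit, had 0.60, 0.54, 0.66, 0.82 and 1.01, an estimate of 0.72 ± 0.14 (SE, n = 5; limma, adjusted p = 0.0670). Ndufv3, an accessory subunit of the NADH-binding module, had 0.45, 0.73, 1.05, 0.45 and 0.64. These genes were above 0 on every array, with the spread between arrays smaller than the ratio itself. Ndufa5 had 0.65, 0.32, 0.77, 0.75 and 0.83, and Ndufb7 had 0.68, 0.24, 0.75, 0.66 and 0.86, both lowest on replicate 2. The steadiest member was Ndufc2, with 0.43, 0.42, 0.50, 0.45 and 0.49 (SD 0.034 over the 5 arrays).

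The 5 highest complex I genes are shown with the 150 bases before their transcription start, from RefSeq's rat annotation (GRCr8), because respiratory genes are textbook targets of nuclear respiratory factor 1 (NRF1) and of ETS-family factors (NRF2, also called GABP). The sequences run 5′ to 3′ on the gene's own strand, and capitals mark GCGCANGCGC, the NRF1 letters, or CCGGAA in either orientation, the ETS letters. The windows are, in order, chr7:30658166-30658315 on the plus strand, chr5:141264403-141264552 on the minus strand, chr20:9613636-9613785 on the plus strand, chr4:53971236-53971385 on the minus strand and chr19:41477292-41477441 on the minus strand.
Ndufa12: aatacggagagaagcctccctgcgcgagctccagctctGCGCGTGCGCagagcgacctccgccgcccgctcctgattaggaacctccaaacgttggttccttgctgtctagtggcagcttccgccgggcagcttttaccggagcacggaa
Ndufs5: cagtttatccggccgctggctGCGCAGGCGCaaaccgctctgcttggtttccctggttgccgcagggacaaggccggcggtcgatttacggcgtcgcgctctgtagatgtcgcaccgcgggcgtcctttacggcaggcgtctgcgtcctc
Ndufv3: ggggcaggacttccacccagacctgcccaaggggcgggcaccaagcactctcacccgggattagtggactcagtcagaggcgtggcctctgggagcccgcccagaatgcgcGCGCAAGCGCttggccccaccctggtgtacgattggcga
Ndufa5: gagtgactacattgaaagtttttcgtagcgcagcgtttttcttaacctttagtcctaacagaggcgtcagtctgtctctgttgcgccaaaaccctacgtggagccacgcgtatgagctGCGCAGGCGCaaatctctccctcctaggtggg
Ndufb7: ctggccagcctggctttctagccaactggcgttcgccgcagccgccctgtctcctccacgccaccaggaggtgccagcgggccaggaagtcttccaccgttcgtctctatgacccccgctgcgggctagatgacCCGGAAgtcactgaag
The first 4 hold the NRF1 letters and Ndufb7 holds the ETS letters.

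The same letters were counted in the 78 members with a promoter sequence in the table, over 300 bases from 250 before to 50 after the start, on both strands. The NRF1 letters were in 17 members (21.8%), against 4.71% of all 27457 promoters and 6.09% of the 19005 protein-coding ones. The ETS letters were in 33 (42.3%, against 15.8% and 18.6%), and AAGATGG, the letters of YY1, another factor known at such promoters, were in 15 (19.2%, against 7.30% and 7.58%). A gene with several of these letters counts under each, and 51 members (65.4%) held at least 1 of the 3, against 24.5% of all promoters. Within the family, medians with and without the letters lay close together: the median ratio was 0.26 with the NRF1 letters and 0.25 without, 0.29 and 0.24 for ETS, and 0.31 and 0.25 for YY1. A match is a description of letters and shows no binding.

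The 6 catalytic core genes of complex I had a lower median than the accessory genes on each of the 5 arrays, and overall a median of 0.24 against 0.27 for the 27 accessory genes. Ndufs7, which carries the iron-sulphur cluster next to ubiquinone, had 0.18, -0.054, 0.28, 0.73 and 0.38. Ndufs8, an iron-sulphur subunit, had 0.33, 0.26, 0.41, 0.056 and 0.60. Ndufv2, an iron-sulphur subunit of the NADH module, had 0.29, 0.25, 0.35, 0.11 and 0.29. Of these core genes, Ndufs8 and Ndufv2 were above 0 on all 5 arrays. Ndufs1, the largest iron-sulphur subunit, had 0.47, 0.41, -0.22 and 0.31 on replicates 1, 2, 4 and 5, and its missing value on replicate 3 was left out of the fit. Ndufs3, a core subunit near ubiquinone, had 0.11, -0.0042, 0.29, -0.30 and 0.17, and Ndufv1, which binds NADH, had 0.018, -0.16, 0.20, -0.037 and -0.15. The last pair straddled 0, with estimates of 0.019 ± 0.13 and -0.039 ± 0.13 (SE, n = 5 each). The Ndufs3 estimate averaged probes on opposite sides of 0. Its RefSeq mRNA probe gave 0.26, above 0 on all 5 arrays, and its expressed-sequence probe gave -0.22. For Ndufs7 on replicate 2, the RefSeq mRNA probe gave 0.27 and the expressed-sequence probe -0.38.

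Ndufs4, an accessory subunit of the NADH module, was the lowest complex I gene, with -0.17, 0.082, 0.24, -1.16 and -0.64. Its estimate of -0.36 ± 0.23 (SE, n = 5; limma, adjusted p = 0.555) rested on replicates 4 and 5. Ndufb10, a B subunit, had an estimate of -0.27 with -1.21 on replicate 4. The other B subunits lay above 0: 9 of 10 did so, 8 of them on all 5 arrays, with a median of 0.31. Of the 11 A subunits, 10 had an estimate above 0, 4 of them on all 5 arrays, with a median of 0.20. Ndufa7, an A subunit, ranged from 1.29 on replicate 1 to -0.71 on replicate 4. Ndufab1, the mitochondrial acyl carrier protein, had probes that disagreed: a RefSeq mRNA probe gave 0.85 and an expressed-sequence probe gave -0.38.

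**Figure D2:**
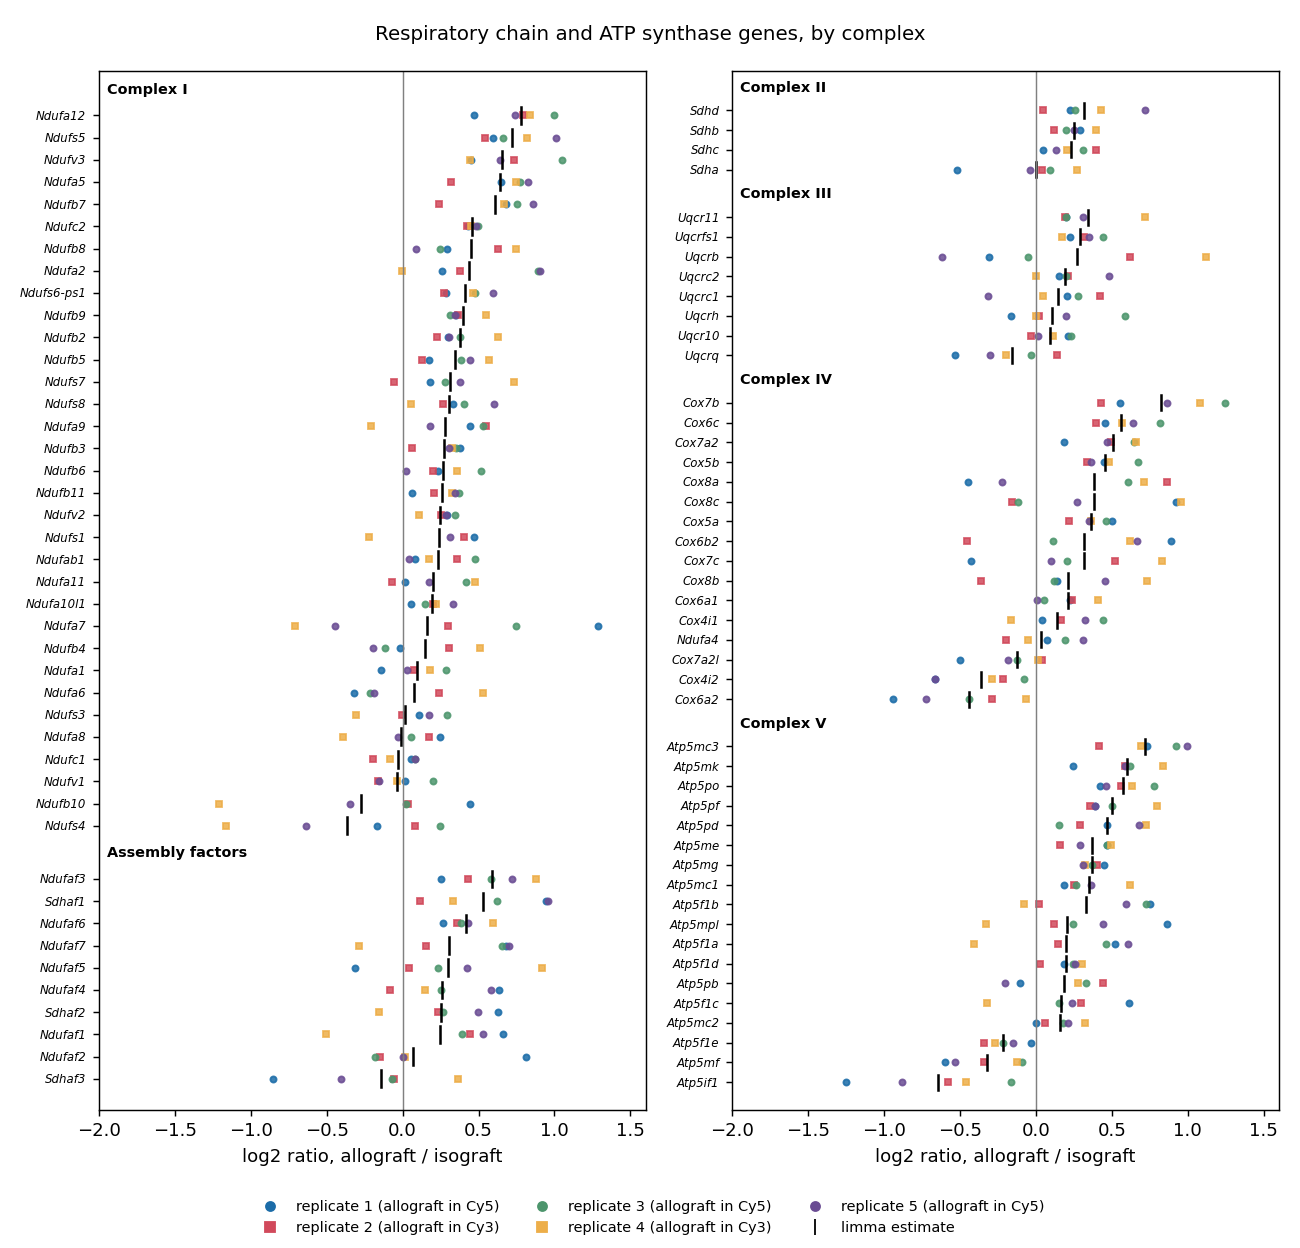
Log2 ratio of allograft over isograft leukocytes (horizontal axis) for each of the 89 genes, grouped by complex and sorted by estimate. Points are the 5 arrays (circles, allograft in Cy5; squares, allograft in Cy3) and black ticks are limma estimates. Most ticks lie right of 0, with Atp5if1 at -0.64 and Cox6a2 at -0.44 furthest left.

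Complex II (succinate dehydrogenase) is shared between the respiratory chain and the citric acid cycle. Its 4 genes had a median of 0.24, and the membrane anchors and the iron-sulphur subunit lay above 0 while the flavoprotein did not. Sdhd, a membrane anchor, had 0.23, 0.049, 0.26, 0.43 and 0.72. Sdhb, the iron-sulphur subunit, had 0.29, 0.12, 0.20, 0.40 and 0.25. Sdhc, the other anchor, had 0.045, 0.40, 0.31, 0.21 and 0.13. Averaged per gene, each of these was above 0 on all 5 arrays, but probes of both anchors disagreed in sign. The RefSeq mRNA probe of Sdhc gave 0.53 and its expressed-sequence probe -0.068. That of Sdhd gave 0.59, against -0.018 and 0.39 for its other probes. Sdha, the flavoprotein that oxidises succinate, had -0.52, 0.041, 0.090, 0.27 and -0.037, an estimate of -0.00042 ± 0.15 (SE, n = 5), and its sign turned under several alternative settings. On replicate 1 the RefSeq mRNA probe of Sdha gave -0.019 and its expressed-sequence probe -1.02, with estimates of 0.067 and -0.068. The adjusted p of the 4 genes was 0.435 or higher.

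Complex III (the cytochrome bc1 complex) passes electrons from ubiquinol to cytochrome c. Its 8 genes had the lowest median of the complexes, 0.17, with 7 above 0 and 3 above 0 on all 5 arrays. The medians of complexes I and V lay above that of complex III on 5 of 5 arrays, and that of complex IV on 2 of 5. These are orders of medians, with no test.

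Uqcr11, a small subunit, was the highest, with 0.20, 0.19, 0.20, 0.72 and 0.31 and an estimate of 0.35 ± 0.14 (SE, n = 5; limma, adjusted p = 0.358). Its value on replicate 4 stood apart from the others. Uqcrfs1, the Rieske iron-sulphur protein, had 0.23, 0.32, 0.44, 0.17 and 0.35. Uqcrc2, a core protein, had 0.15, 0.21, 0.20, 0.0013 and 0.48, and Uqcrc1, the other core protein, had 0.21, 0.42, 0.28, 0.047 and -0.31. The core proteins parted on replicate 5, where the Uqcrc1 probes disagreed. Its RefSeq mRNA probe gave 0.32 there and was above 0 on every array, while its expressed-sequence probe gave -0.95. Uqcrq, a small subunit, was the lowest, with -0.53, 0.14, -0.029, -0.20 and -0.30. Uqcrb, a ubiquinone-binding subunit, had 3 RefSeq mRNA probes at 0.42, 0.56 and 0.63 and an expressed-sequence probe at -0.51, whose values changed sign with the dye (-3.80 to -1.68 with the allograft in Cy5, above 1 with it in Cy3). The averaged estimate of 0.27 mixes both.

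Complex IV (cytochrome c oxidase) reduces oxygen to water, and several of its nuclear subunits exist as a broadly expressed form and a form restricted to muscle, lung or testis. Its 16 genes had a median of 0.32, with 13 above 0, 6 above 0 on all 5 arrays and 2 below 0 on all 5. The medians on replicates 1 to 5 were 0.16, 0.19, 0.20, 0.52 and 0.32, highest on replicate 4. At an unadjusted p below 0.05, 5 genes were higher (Cox5a, Cox5b, Cox6c, Cox7a2 and Cox7b), and 2 were lower, the restricted forms Cox4i2 and Cox6a2. These shares were 31.2% and 12.5%, beside 7.63% and 7.54% of named genes. The shares above and below 0 on all 5 arrays were 37.5% and 12.5%, beside 10.2% and 10.5% of named genes. The higher genes were counted as broad, but none had a restricted form among the genes tested. All 10 genes counted as broad had an estimate above 0 (median 0.37), against 3 of 5 restricted forms (median 0.21). Ndufa4, counted as broad, was just below 0 after subtraction of the local trend. Both forms were measured for subunits 4, 6A and 8. There the broad forms had 0.14 (Cox4i1), 0.21 (Cox6a1) and 0.38 (Cox8a). The restricted forms had -0.36 (Cox4i2), -0.44 (Cox6a2), 0.21 (Cox8b) and 0.38 (Cox8c). The broad median was above the restricted median on 4 of 5 arrays.

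Cox7b, subunit 7B, had the largest estimate of all members, with 0.55, 0.43, 1.25, 1.08 and 0.86. Its estimate was 0.82 ± 0.17 (SE, n = 5; limma, adjusted p = 0.0793), a fold of 1.77. Its 150 bases before the start, chrX:75148886-75149035 on the plus strand, are shown for contrast with the complex I genes, since the letters of NRF1, ETS and YY1 were not found in its promoter window.
Cox7b: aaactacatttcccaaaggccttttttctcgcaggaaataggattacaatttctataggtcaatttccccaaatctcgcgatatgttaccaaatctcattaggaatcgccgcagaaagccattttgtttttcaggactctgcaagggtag
Cox6c, a small subunit with no alternative form, had 0.46, 0.40, 0.82, 0.57 and 0.64. Cox7a2, the broad form of subunit 7A, had 0.18, 0.49, 0.65, 0.66 and 0.47. Both were above 0 on every array, at limma adjusted p = 0.114 for Cox6c and 0.164 for Cox7a2.

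The forms of a subunit were then set side by side. Cox4i1, the broad form of subunit 4, had 0.043, 0.17, 0.44, -0.16 and 0.32, against -0.66, -0.21, -0.080, -0.29 and -0.67 for Cox4i2, a form known from lung. Cox4i2 was below 0 on all 5 arrays, with an estimate of -0.36 ± 0.15 (SE, n = 5; limma, adjusted p = 0.367), and below Cox4i1 on each array. Cox6a1, the broad form of subunit 6A, had 0.22, 0.24, 0.056, 0.41 and 0.0073. Cox6a2, the form of heart and skeletal muscle, had -0.94, -0.29, -0.44, -0.062 and -0.72, also below 0 throughout and below Cox6a1 on each array. The differences between forms were not tested.

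The Cox6a2 estimate of -0.44 ± 0.14 (SE, n = 5; limma, adjusted p = 0.234) averaged 3 probes that disagreed. The RefSeq mRNA probe had -1.23, -0.84, -0.59, -1.06 and -1.26, and fitted by itself it passed the threshold (-0.99 ± 0.16; limma, adjusted p = 0.0419). The other probes gave -0.39 and 0.068. This RefSeq mRNA probe was the single one among the 144 member probes tested that passed. Among all probes of the array fitted singly, 335 passed as higher and 258 as lower. In the main fit 0.712% of named genes passed as lower.

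Cox5a and Cox5b, a pair of distinct subunits, gave similar ratios, with estimates of 0.36 and 0.45 and values above 0 on all 5 arrays. Cox8a, the broad form of subunit 8, had -0.44, 0.86, 0.61, 0.71 and -0.23, which straddled 0, and its RefSeq mRNA probe gave 0.66 while its expressed-sequence probe gave 0.10. Cox8b, the heart and skeletal muscle form, had an estimate of 0.21 with values between -0.36 and 0.73, and Cox8c, the testis form, 0.38 with values between -0.16 and 0.96. Cox6b2, the testis form of subunit 6B, had 0.32 with values between -0.46 and 0.89. These restricted forms changed sign between arrays, unlike Cox4i2 and Cox6a2. Cox7a2l, which links complexes III and IV, had an estimate of -0.12 with values between -0.50 and 0.037. Ndufa4 had an estimate of 0.035 from 4 probes between -0.49 and 0.35.

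**Figure D3:**
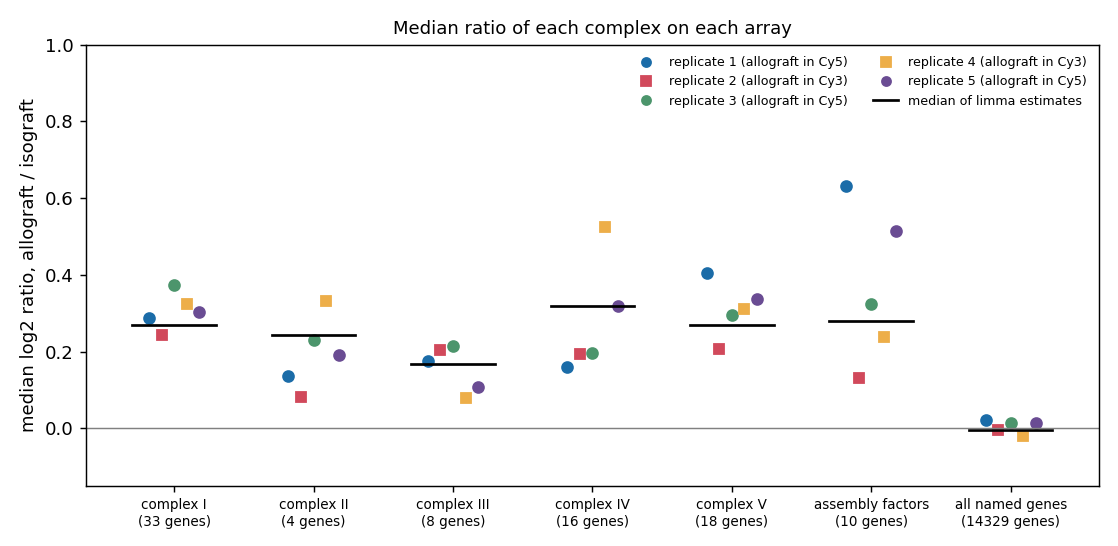
Median log2 ratio of allograft over isograft leukocytes (vertical axis) for the genes of each complex, the assembly factors and all named genes. Points are the 5 arrays and lines are the medians of the limma estimates, which run from 0.17 for complex III to 0.32 for complex IV, beside -0.0058 for all named genes.

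Complex V (ATP synthase) consists of a catalytic F1 head, a rotating c-ring in the membrane, a peripheral stalk that holds the head still, further membrane subunits and an inhibitor. Of its 18 genes, 15 lay above 0, 10 of them on all 5 arrays, and the median was 0.27. The remaining 3 (Atp5f1e, Atp5mf and Atp5if1) were below 0 on all 5 arrays. At an unadjusted p below 0.05, 9 genes were higher and 1 was lower, the inhibitor. These shares were 50% and 5.56%, beside 7.63% and 7.54% of named genes. The shares above and below 0 on all 5 arrays were 55.6% and 16.7%, beside 10.2% and 10.5% of named genes.

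The c-ring protein is encoded by 3 genes that differ in their import sequence and give the same mature protein. Atp5mc3 had 0.73, 0.41, 0.92, 0.69 and 1.00 and an estimate of 0.72 ± 0.13 (SE, n = 5; limma, adjusted p = 0.0603). Atp5mc1 had 0.19, 0.25, 0.26, 0.62 and 0.36, an estimate of 0.35. Atp5mc2 had 0.00033, 0.058, 0.18, 0.32 and 0.21, an estimate of 0.16. All 3 were above 0 on the 5 arrays, and Atp5mc3 was above the other two on each array.

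The 4 peripheral stalk genes had a median of 0.49, against 0.20 for the 5 genes of the F1 head, and the stalk median was the higher one on 4 of 5 arrays. Atp5po, the oligomycin-sensitivity conferring protein at the top of the stalk, had 0.42, 0.56, 0.78, 0.63 and 0.46 and an estimate of 0.58 ± 0.13 (SE, n = 5; limma, adjusted p = 0.107). Its window, chr11:44657484-44657633 on the minus strand, is shown because it holds the NRF1 letters, in capitals, as 4 of the 5 complex I genes shown do. The promoters of Sdha and Sdhaf3, with estimates of -0.00042 and -0.14, hold these letters too, so they were not confined to high genes.
Atp5po: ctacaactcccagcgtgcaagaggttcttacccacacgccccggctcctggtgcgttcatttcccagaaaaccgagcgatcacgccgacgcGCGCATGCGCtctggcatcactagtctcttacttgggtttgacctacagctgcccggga
Atp5pf (coupling factor 6), Atp5pd (subunit d) and Atp5pb (subunit b), the other stalk genes, had estimates of 0.50, 0.47 and 0.18, and Atp5pb was below 0 on replicates 1 and 5.

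In the F1 head, Atp5f1b, the catalytic beta subunit, had 0.75, 0.021, 0.73, -0.077 and 0.59. Atp5f1a, the alpha subunit, had 0.52, 0.15, 0.46, -0.41 and 0.60. Both were high on replicates 1, 3 and 5, where the allograft was in Cy5, and lower on replicates 2 and 4, where it was in Cy3; their dye terms were 0.36 and 0.33, with adjusted p for dye of 0.406 and 0.446 (limma). Atp5f1e, the epsilon subunit, had -0.032, -0.34, -0.21, -0.27 and -0.15. Atp5mf, the membrane subunit f, had -0.60, -0.34, -0.090, -0.12 and -0.53. Among the other membrane subunits, Atp5mk had an estimate of 0.60 and Atp5mg and Atp5me each had 0.37, all 3 above 0 on every array.

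Atp5if1, the inhibitory factor that binds F1 and stops it from hydrolysing ATP, was the lowest of all 89 genes. It had -1.25, -0.58, -0.16, -0.46 and -0.88, below 0 on all 5 arrays, and an estimate of -0.64 ± 0.19 (SE, n = 5; limma, adjusted p = 0.178). It ranked 13959 of 14329 named genes from the highest. Erythroid marker genes were lower in the same samples: 8 of 10 passed the test as lower, against 0.712% of named genes. Their list medians were -2.75, -1.60, -1.34, -1.78 and -2.13 on replicates 1 to 5. The erythroid haem enzyme Alas2 lay between -1.76 and -1.24. The part of the erythroid genes in the Atp5if1 ratio was not tested. The window of the gene, chr5:150026678-150026827 on the minus strand, is shown beside those of the high genes, and the letters of NRF1, ETS and YY1 were not found in its promoter window.
Atp5if1: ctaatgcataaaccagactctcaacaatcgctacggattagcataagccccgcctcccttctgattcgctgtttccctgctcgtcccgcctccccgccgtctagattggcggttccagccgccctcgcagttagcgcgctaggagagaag

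The assembly factors build the complexes without remaining in them. Of 10, 9 lay above 0, 3 of them on all 5 arrays, with a median of 0.28, and the array medians were 0.63, 0.13, 0.32, 0.24 and 0.51. Ndufaf3, a complex I assembly factor, was the highest, with 0.26, 0.43, 0.58, 0.88 and 0.72 and an estimate of 0.59 ± 0.15 (SE, n = 5; limma, adjusted p = 0.131). Sdhaf1, which helps insert the iron-sulphur clusters of Sdhb, had 0.94, 0.11, 0.62, 0.33 and 0.96, above 0 on every array and highest where the allograft was in Cy5. Sdhaf3, the lowest, had -0.85, -0.055, -0.069, 0.36 and -0.41, an estimate of -0.14.

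Related mitochondrial genes outside the family were summarised as lists. In each of the 6 lists 0 genes passed the test at 0.05 (limma). At an unadjusted p below 0.05 the counts were 0 to 4 higher and 0 to 2 lower, beside 7.63% and 7.54% of the named genes. The largest counts were 4 of 15 citric acid cycle genes higher and 2 of 11 genes of transport, pores and uncoupling lower. The citric acid cycle genes had 13 of 15 above 0 and a median of 0.18. The electron carriers and entry enzymes had 10 of 14 above 0 and a median of 0.023, with Cycs, cytochrome c, at 0.81 ± 0.14 (SE, n = 5; limma, adjusted p = 0.0528) and Gpd2, the mitochondrial glycerol-3-phosphate dehydrogenase, at 0.75. Coq6 was the lowest of these carriers and enzymes, at -0.20. Assembly factors of cytochrome oxidase and complex III had 6 of 16 above 0 and a median of -0.036, beside 0.28 for the assembly factors of complexes I and II. The 3 ATP synthase assembly genes had a median of 0.18. Carriers of ATP, ADP and phosphate, pores and uncoupling proteins had 6 of 11 above 0 and a median of 0.094, from Vdac2, an outer-membrane channel, at 0.64 to Ckmt1, a mitochondrial creatine kinase, at -0.59. Of these 11 genes, 2 were above 0 on all 5 arrays (18.2%, beside 10.2% of named genes). Below 0 on all 5 were 3 (27.3%, beside 10.5%), namely Ckmt1 and the uncoupling proteins Ucp1 and Ucp2. Regulators of mitochondrial biogenesis had 10 of 16 above 0 and a median of 0.11, from Hif1a, the hypoxia-inducible factor, at 0.79 to Polg2 at -0.14. Nrf1 had 0.26, Gabpa 0.27 and Yy1 0.091 (limma, adjusted p of 0.569, 0.489 and 0.825). Ppargc1a, Tfam and Esrra had -0.080, -0.040 and -0.083.

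Marker genes of the cells that the sample could hold differed between the groups on the same arrays. Past the adjusted threshold of 0.05, platelet markers had 5 of 7 lower (median -2.23), where 1.07% of named genes passed as higher and 0.712% as lower. Monocyte and macrophage markers had 2 of 9 higher (Cd14 and Aif1; list median 0.27), T cell markers 1 of 9 (Cd3e; 0.42), NK cell markers 2 of 5 (Klrk1 and Nkg7; -0.11), and proliferation genes 1 of 8 (Ccna2; 0.77). Among the NK cell markers, Klrd1 and Ncr1 lay the other way, at -0.56 and -0.61 and below 0 on all 5 arrays, without passing the threshold. At an unadjusted p below 0.05, 7.63% of named genes were higher and 7.54% lower. By that measure 7 of 8 proliferation genes were higher, and those 7 were above 0 on all 5 arrays. Monocyte and macrophage markers had 4 of 9 higher, T cell markers 4 of 9, and NK cell markers 2 higher and 2 lower. Kidney tubule and podocyte markers had 0 of 16 past the threshold in either direction, with 0 higher and 1 lower at an unadjusted p below 0.05, and a median of -0.17. Endothelial markers (0 of 9, median 0.0069) and granulocyte markers (0 of 8, median -0.10) passed in neither direction, with 1 higher and 1 lower, and 1 higher and 2 lower, at an unadjusted p below 0.05. Without intensities the level of a marker, or its absence, could not be given. B cell markers (0 of 2, median -0.98) had both genes lower at an unadjusted p below 0.05. The part of cell composition in the respiratory ratios was not tested.

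Of the 40 members with several probes, 24 had all probes on the same side of 0 and 13 had probes more than 0.5 apart, with a median range of 0.22. The kind of accession went with these differences, a pattern seen only after the values were known. The counts by accession take in only member probes with a value on all 5 arrays. Predicted RefSeq mRNAs, such as that of the Ndufaf2 probe, were counted with the other accessions. Among those designed on a RefSeq mRNA, 86 of 94 had a mean ratio above 0 (91.5%), with a median of 0.36 and a median SD over the arrays of 0.20. Among member probes of other accessions, 26 of 45 were above 0 (57.8%), with a median of 0.095 and a median SD of 0.51. Among all named genes, 53.8% of RefSeq mRNA probes and 48.1% of the others were above 0. With RefSeq mRNA probes alone, Atp5mc3 and Ndufab1 passed the threshold as higher and Cox6a2 as lower.

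**Figure D4:**
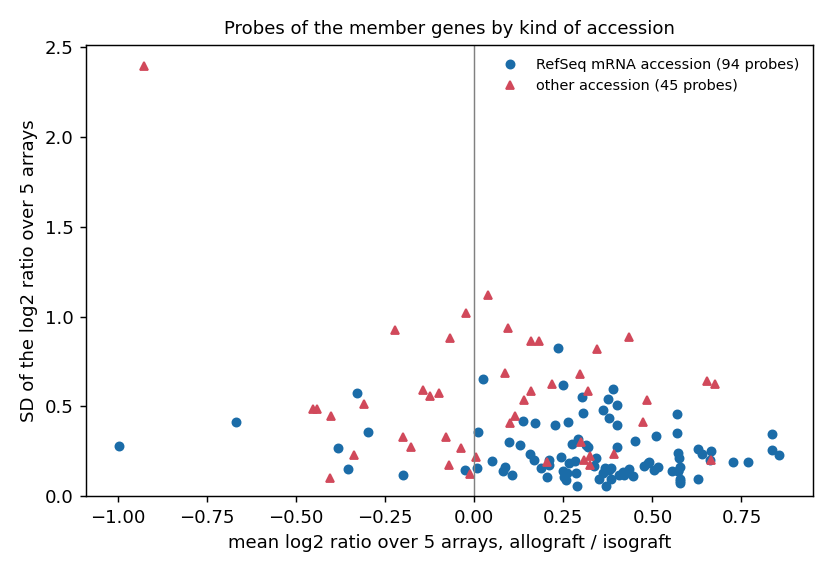
Mean log2 ratio of allograft over isograft leukocytes over the 5 arrays (horizontal axis) against its SD over the arrays (vertical axis), for each member probe with a value on all 5 arrays. Blue circles are 94 probes on RefSeq mRNAs, mostly right of 0 at a low SD, and red triangles are 45 probes of other accessions, spread on both sides at a median SD of 0.51.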

How the data were processed

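Each dual-colour array compared RNA of allograft and isograft leukocytes. The authors deposited 1 log ratio per spot, used here as log2 ratios; log base, scanner, background correction and normalization were not given in the sources used here, so folds hold for base 2. Scale and centring are therefore the authors': array medians were 0.017, -0.0098, 0.017, -0.012 and 0.028 and SDs 0.506 to 0.847. The direction, allograft over isograft, is likely, on the basis of the sample titles and the series' design, and the values of replicates 2 and 4 were taken as already turned. Depth has no meaning for arrays, and their number limits the precision.

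Row numbers did not follow the probe numbers: pairs of probes with 1 accession correlated at -0.0016 over 4288 pairs. The table was read as 103 rows by 430 columns. Of 8 orders of that layout, the one accepted gave 0.582 over 4730 pairs and the other 7 at most 0.026; single arrays gave 0.179 to 0.609. The annotation names 1 gene for 23535 probes, several for 48 and none for 20707. Symbols were updated through Entrez numbers (23488 probes matched, 1 symbol changed).

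Probes with values on at least 4 arrays and both dye orientations were averaged per gene, after 407 spots whose ratio followed the dye by a mean above 3 were left out (0 on named probes). limma 3.58.1 (R 4.3.3) fitted the graft effect with a dye term, and p-values were adjusted by the Benjamini-Hochberg method over 33646 genes and unnamed probes (threshold 0.05). The fit was tested on simulated data. P-values measure the spread between these 5 arrays, which may be partly technical.

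The members and lists were chosen with earlier results of these data known. Named by rule were, in each complex, the genes with the highest and lowest estimate, all of complex II and sets of alternative forms and core genes; other members were named after their values were seen. Promoters came from RefSeq (GRCr8; 78 of 89 members matched), read with Python 3.11.15. Alternatives were no dye term, scaled or quantile-normalised arrays, array weights, a robust or no variance prior, single probes, other filters, a local trend (window of 15 spots), RefSeq mRNA probes (added after seeing the data) and leaving out each array.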

Additional observations from a re-analysis of the deposited data

Results flagged for a closer look

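In 5 of 95 sets of 5 array values checked (the members with a value on every array, and group medians), a single array stood apart by more than 0.71 of the whole range; chance gives about 1 in 20. Ndufb3, a B subunit of complex I, had a log2 ratio of 0.062 on replicate 2, against 0.30 to 0.38 on the others. Ndufb9, another B subunit, had 0.55 on replicate 4, against 0.31 to 0.37. Ndufaf1, a complex I assembly factor, had -0.51 on replicate 4, against 0.39 to 0.66. Ndufaf2, also an assembly factor, had 0.81 on replicate 1, against -0.18 to 0.016. Uqcr11, a small subunit of complex III, had 0.72 on replicate 4, against 0.19 to 0.31. Replicate 4 was the array that stood apart in 3 of the 5.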

How the results depend on the processing

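The number of members that passed as higher was 3 without the dye term (Atp5mc3, Ndufa12, Ndufs5), 1 with a local trend subtracted (Atp5mc3, 0.78, adjusted p = 0.0400) and 2 with RefSeq mRNA probes alone (Atp5mc3, 0.80, and Ndufab1), against 0 otherwise. As lower, 1 passed with each probe tested by itself and 1 with RefSeq mRNA probes alone (Cox6a2 both times). The lowest adjusted p of a member ran from 0.0380 to 0.254 over the alternatives, the members' median from 0.24 to 0.31 and the share above 0 from 82.95% to 88.89% of the 81 to 89 members tested. Over all genes and unnamed probes, 256 passed as higher and 199 as lower; with arrays scaled to a common spread the split turned to 98 and 214, and without moderation of the variance 0 passed in either direction (2152 higher and 2334 lower at an unadjusted p below 0.05 with moderation). Leaving out 1 array gave 39 to 92 higher and 17 to 80 lower. The complex IV median, the highest in the main fit, was 0.23 with scaled arrays, against 0.28 for complex I and 0.30 for complex V. With quantile normalization it was 0.24, against 0.28 and 0.30, so the order of the complexes was not kept. The complex V median was 0.34 with values on all 5 arrays required, 0.36 with RefSeq mRNA probes and 0.29 to 0.34 with 1 array left out; the complex II median was 0.39 with RefSeq mRNA probes. Signs turned for genes near 0: Sdha was 0.015 with scaled arrays, 0.015 with quantile normalization, 0.045 with a local trend, 0.067 with RefSeq mRNA probes and -0.062 to 0.091 with 1 array left out; Ndufa4 was -0.0018 with a local trend. With 1 array left out, Ndufa4 ran from -0.0013 to 0.071, Ndufs3 from -0.056 to 0.094, Cox8b from -0.061 to 0.48 and Ndufv1 from -0.083 to 0.0054. The causes were not tested. Each ratio is already a difference within an allograft and isograft pair, so the fit is paired and no further block was added. Signal over background is unknown.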

Other observations

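The value table was also read with its row numbers taken as probe numbers. In that order 85 members were tested, 39 lay above 0 (45.88%), their median was -0.038 and 1 passed the threshold (limma). In the recovered order the corresponding values were 89 tested, 75 above 0, a median of 0.26 and 0 passing.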
